A study of Mus musculus with 12 samples.

Results

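The genes for the cathepsins and for legumain encode the main protein-degrading enzymes of the lysosome, and their transcripts were followed here in pancreatic stellate cells (PSCs) grown alone or beside tumour cells and macrophages (MØs). The 10 genes were taken by symbol from the 39179 genes of the count table and are Ctsa, Ctsb, Ctsc, Ctsd, Ctsh, Ctsk, Ctsl, Ctss, Ctsz and Lgmn. All 10 were in the table, each in 1 row. Bulk RNA was measured in 12 libraries, with 4 biological replicates in each of 3 cultures that were kept for 72 h in minimal medium. In mono-culture the PSCs grew by themselves, in the 2-way (2W) culture they shared the dish with pancreatic cancer cells (PCCs), and in the 3-way (3W) culture with PCCs and MØs. The PSCs taken from them are called mono, 2W and 3W samples. The PSCs were 1 clone of an immortalised mouse line that carried mCherry and were sorted after culture as cells positive for it and negative for EGFP and TagBFP, the labels of the other cell types. The PCCs were a mouse pancreatic tumour line with an EGFP label, and the MØs were the RAW264.7 mouse macrophage line with a TagBFP label. The strain given for every library was C57BL/6. All 3 groups therefore shared the same clone, the mCherry label and the sort.

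Lysosomal proteases are made as inactive precursors in the endoplasmic reticulum, tagged with mannose 6-phosphate in the Golgi, carried to endosomes by mannose 6-phosphate receptors and activated in the acid interior of the lysosome. Cathepsin D is an aspartic protease, cathepsin A a serine carboxypeptidase, legumain a cysteine protease that cuts after asparagine, and the other members are cysteine proteases of the papain family. Fibroblasts and stellate cells use them to turn over proteins and matrix that they take up, and they also secrete a part of them. Cathepsin S is best known from antigen-presenting cells, where it trims the invariant chain of MHC class II, and cathepsin K from osteoclasts, where it degrades bone collagen.

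The promoters of the members were read from RefSeq (GRCm38.p6), which held 10 promoters of 8 members, each running from 250 bases before the transcription start site to 50 bases after it. Ctsb and Ctsh had no entry. Each was searched on both strands for 4 motifs. These were the E-box core CACGTG, which the MiT factors TFEB, TFE3 and MITF bind in lysosomal genes, the STAT motif TTCNNNGAA (GAS), the interferon motif GAAANNGAAA (ISRE) and the NF-κB motif GGGANTTTCC. The E-box core was in promoters of 4 members, Ctsa, Ctsd, Ctsl and Lgmn, and in 7.15% of all 32851 promoters of the table. A GAS match stood in the Ctsc promoter (8.30% of all promoters) and an ISRE match in that of Ctss (3.44%). None of the 10 promoters held the NF-κB motif (0.411% of all promoters), and no match overlapped another. The promoters printed are those with a match in members that were called below or had counts in the 3W culture only, with the matches in capitals.
Ctsd, chr7:142387778-142388077, minus strand: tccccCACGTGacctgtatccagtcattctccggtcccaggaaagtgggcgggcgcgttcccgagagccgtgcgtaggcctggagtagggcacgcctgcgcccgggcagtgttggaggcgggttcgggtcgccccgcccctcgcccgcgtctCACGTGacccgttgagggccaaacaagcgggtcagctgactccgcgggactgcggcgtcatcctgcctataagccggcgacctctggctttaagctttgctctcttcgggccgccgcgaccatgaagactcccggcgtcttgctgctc
Ctsc, chr7:88277835-88278134, plus strand: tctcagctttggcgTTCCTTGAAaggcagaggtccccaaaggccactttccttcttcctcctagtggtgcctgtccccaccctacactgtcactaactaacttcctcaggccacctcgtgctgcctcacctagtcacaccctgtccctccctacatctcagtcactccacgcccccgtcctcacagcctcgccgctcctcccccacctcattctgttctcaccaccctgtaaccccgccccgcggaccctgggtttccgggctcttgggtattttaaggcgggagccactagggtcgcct
Lgmn, second promoter, chr12:102439043-102439342, minus strand: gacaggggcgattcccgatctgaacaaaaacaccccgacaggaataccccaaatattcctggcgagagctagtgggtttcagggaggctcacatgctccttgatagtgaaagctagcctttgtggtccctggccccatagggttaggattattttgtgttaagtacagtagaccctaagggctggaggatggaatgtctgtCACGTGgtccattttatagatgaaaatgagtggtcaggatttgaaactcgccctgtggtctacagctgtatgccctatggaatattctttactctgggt
Ctss, chr3:95526536-95526835, plus strand: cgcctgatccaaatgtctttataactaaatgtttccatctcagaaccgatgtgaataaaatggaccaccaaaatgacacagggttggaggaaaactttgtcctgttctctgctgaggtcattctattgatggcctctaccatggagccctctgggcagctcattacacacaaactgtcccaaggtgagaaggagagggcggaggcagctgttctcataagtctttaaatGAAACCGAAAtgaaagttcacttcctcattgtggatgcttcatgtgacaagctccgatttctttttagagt
With the start site counted as 0, the E-box cores of Ctsd began at -245 and -98, the GAS match of Ctsc at -236, the E-box core of the second Lgmn promoter at -49 and the ISRE match of Ctss, GAAACCGAAA, at -21. The first Lgmn promoter had no match to any of the 4 motifs. A match is a stretch of letters, and binding was not measured.

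The libraries held between 4561817 counts (2W replicate 2) and 8093368 counts, with 10363 to 11741 genes at 10 or more counts. One 2W library, replicate 2, stood apart from the others of its culture (Spearman correlation over genes 0.858 to 0.920, where the other pairs of replicates reached 0.948 to 0.987), so some values that rest on it are also given without it. As a check of the labelled cell type, the 14 stellate and fibroblast markers summed to between 8320 and 21176 CPM (counts scaled to the library total) and were led by Sparc, Col1a1 and Col1a2, while the desmin gene Des, a classic stellate marker, averaged 0.727 to 1.68 CPM and Lum 0.0998 to 0.699 CPM. The 12 epithelial markers summed to 0.481 to 2.44 CPM in mono samples, 75.4 to 147.6 CPM in 2W samples and 50.6 to 89.1 CPM in 3W samples. The 21 MØ markers summed to 2.44 to 8.93 CPM in mono samples, 5.05 to 13.0 CPM in 2W samples and 27.9 to 85.8 CPM in 3W samples, the highest value being that of 3W replicate 4. Their part in the results below was not tested. Values without that library cannot test it, because every 3W library held 27.9 CPM or more of MØ markers and 50.6 CPM or more of epithelial markers.

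Among the members, PSCs of all 3 cultures carried the same leading proteases, and the order of the levels was steep. Lysosomal proteases outside the members were not ranked. Of these, Scpep1 averaged 644 CPM in mono samples, 656 CPM in 2W samples and 419 CPM in 3W samples. It lay above the mean of Ctsb in each culture and above that of Ctsd in 2W samples only. The libraries were made from the 3′ end of each transcript, giving about 1 fragment per transcript, so that levels in CPM can be set side by side between genes without a correction for length. In 3W samples Ctsd led with 456.6 ± 52.6 CPM (mean ± SD, n = 4, as for all levels below), followed by Ctsb, Ctsl, Ctsa, Ctsz, Lgmn, Ctsc and Ctsh at 19.4 ± 0.884 CPM, and no library of one of these genes overlapped with those of its neighbour in the order. Ctsk and Ctss came last, at 1.32 ± 0.496 and 1.19 ± 0.959 CPM, and overlapped. In mono samples Ctsd led at 670.4 ± 163.4 CPM and stood clear of the next gene, but Ctsl, Ctsb and Ctsa overlapped with each neighbour between 155.7 and 197.9 CPM, as did Lgmn, Ctsh and Ctsc between 11.8 and 17.0 CPM. In 2W samples Ctsd also led, with Ctsb, Ctsl and Ctsa overlapping in the middle and Lgmn, Ctsc and Ctsh below. Between these groups Ctsz stood alone in both cultures, at 57.3 CPM in mono samples and 63.1 CPM in 2W samples. Ctsk and Ctss came last in both.

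**Figure D1:**
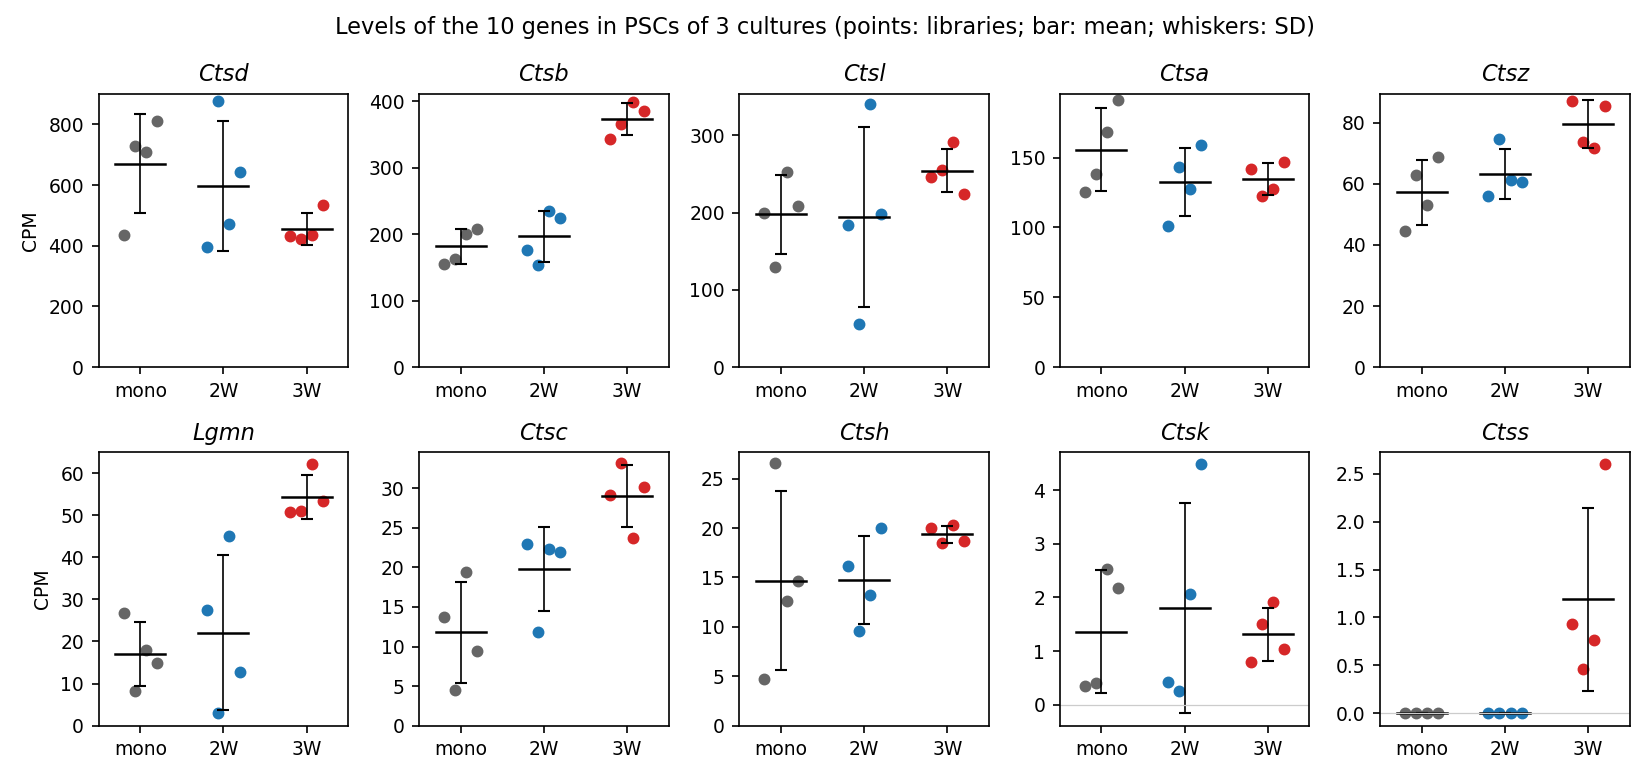
Level of each of the 10 genes in CPM (vertical axis, linear, own scale for each gene) in the 4 libraries of each culture (points), with the mean (bar) and SD (whiskers). Ctsb in 3W samples lies between 343.3 and 399.1 CPM, above the 8 libraries of the other cultures, while Ctsd in 3W samples lies between 423.8 and 535.2 CPM and overlaps with both other cultures.

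The summed level of the 10 genes was close in the 3 cultures, with 1308 ± 230.3 CPM in mono samples, 1243 ± 175.1 in 2W samples and 1404 ± 65.7 in 3W samples. Their make-up was not. Ctsd held 50.8 ± 6.11% of the sum in mono samples (43.2 to 57.7%), 47.5 ± 13.2% in 2W samples (35.9 to 66.0%) and 32.5 ± 2.51% in 3W samples (30.3 to 36.1%). The 66.0% was that of 2W replicate 2, and the other 2W libraries had 35.9 to 47.9%, which overlapped with 3W samples. Ctsb held 14.0 ± 1.08%, 16.0 ± 2.99% and 26.6 ± 1.13%, and its 3W libraries (25.4 to 27.9%) stood above all others, which reached at most 18.0%. Lgmn held 1.39 ± 0.888%, 1.85 ± 1.51% and 3.87 ± 0.321%. The ratio of Ctsb to Ctsd was 0.280 ± 0.0571 in mono samples, 0.366 ± 0.141 in 2W samples and 0.823 ± 0.0864 in 3W samples, where it ran from 0.720 to 0.919 and did not overlap with the other cultures (0.176 to 0.495). The ratio of Ctsl to Ctsd in 3W samples (0.419 to 0.671) overlapped with mono samples (0.179 to 0.461) and 2W samples (0.0642 to 0.718). That of Ctsa to Ctsd (0.274 to 0.328) overlapped with mono samples (0.190 to 0.288) but not with 2W samples (0.163 to 0.269). These shares and ratios use the same values as the tests below.

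**Figure D2:**
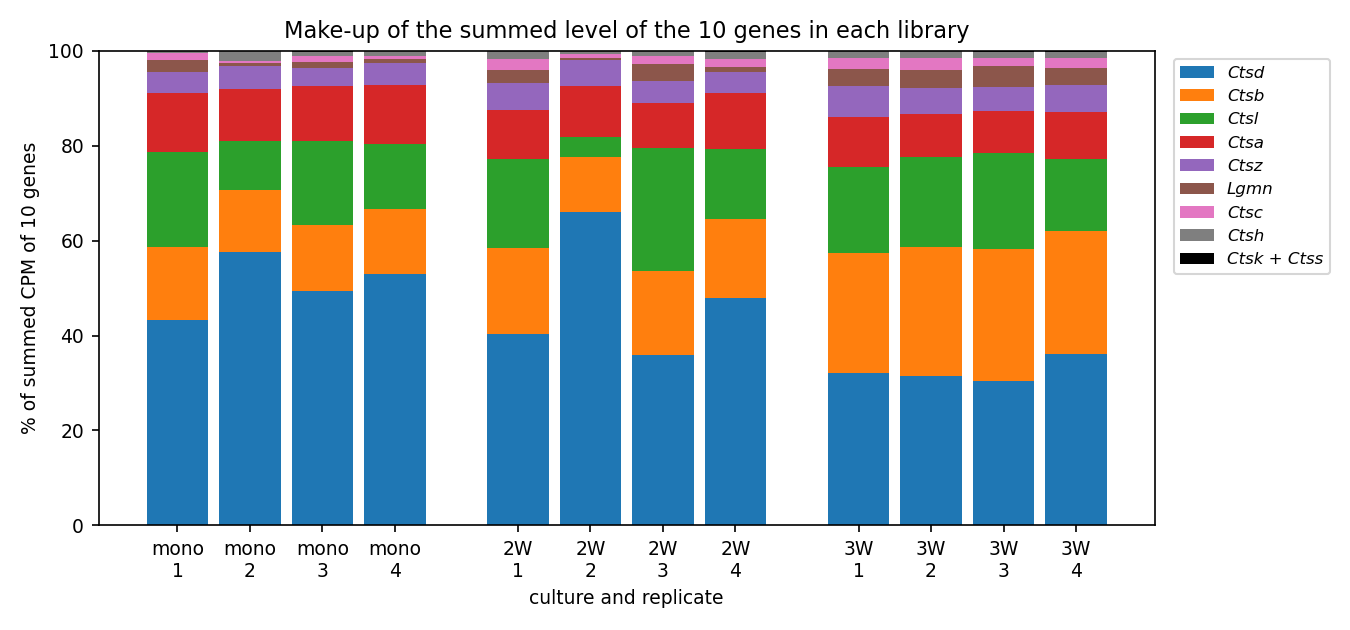
Share of the summed CPM of the 10 genes (vertical axis, percent) that each gene took in each of the 12 libraries (bars, by culture and replicate). The Ctsd share is 30.3 to 36.1% in the 3W libraries and 43.2 to 57.7% in the mono libraries, and 2W replicate 2 has the highest Ctsd share, 66.0%.

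Each comparison was fitted with edgeR on the 8 libraries that it concerns and was called at a Benjamini-Hochberg adjusted p under 0.05 over all genes tested. The 2W against mono comparison asks what PCCs change in PSCs, the 3W against 2W comparison what MØs add, and the 3W against mono comparison spans both. Per the study's methods the total cell number was the same in each culture. Adding a cell type therefore also changed the numbers and ratios of the others, and these cannot be told apart here. Of the members, 9 had enough counts to be tested and Ctss had not. The 3W comparisons share the 3W libraries and are not independent of each other.

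Against 2W samples, 3W samples had more Ctsb, the only member called (1 of 9, where 10.7% of all 11513 genes tested were called in either direction and 5.73% higher). The median log2 fold change of the 9 members was 0.38, with 7 above 0, and that of all genes was 0.0025. In Ctsb, Ctsc, Lgmn and Ctss all 3W libraries lay above all 2W libraries, that is in 3 of the 9 members tested and in Ctss, where 11.6% of the genes tested did so. Without 2W replicate 2 there were 2 members called, Ctsb and Lgmn, and without 3W replicate 4 only Ctsb.

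Between 2W samples and mono samples no member differed. The edgeR test called 0 of 9, none had an unadjusted p under 0.05, and DESeq2 also called 0, where 0.991% of the 11199 genes tested were called. No member separated the libraries of these cultures, as 5.75% of the genes tested did. The largest fitted difference was that of Ctsc (log2 fold change 0.77 ± 0.393 SE, adjusted p = 0.768), and the median over the members was 0.14. The call count does not show that the members were alike: the standard errors ran from 0.200 for Ctsz to 0.879 for Ctsk.

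The comparison with mono samples held the most calls. In 3W samples Ctsb, Ctsc, Ctsz and Lgmn were higher and Ctsd was lower, 5 of the 9 tested, where 26.4% of the 11551 genes tested were called, 13.4% of them all higher and 13.0% lower. The median over the members was 0.41 with 6 above 0, against 0.0116 for all genes. The 3W libraries stood above every mono library in the 4 higher members and in Ctss, and in 13.9% of the genes tested. Without 3W replicate 4, the library with the most MØ marker counts, Ctsb, Ctsc, Ctsd and Lgmn were still called and Ctsz was not (log2 fold change 0.43, adjusted p = 0.120).

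**Figure D3:**
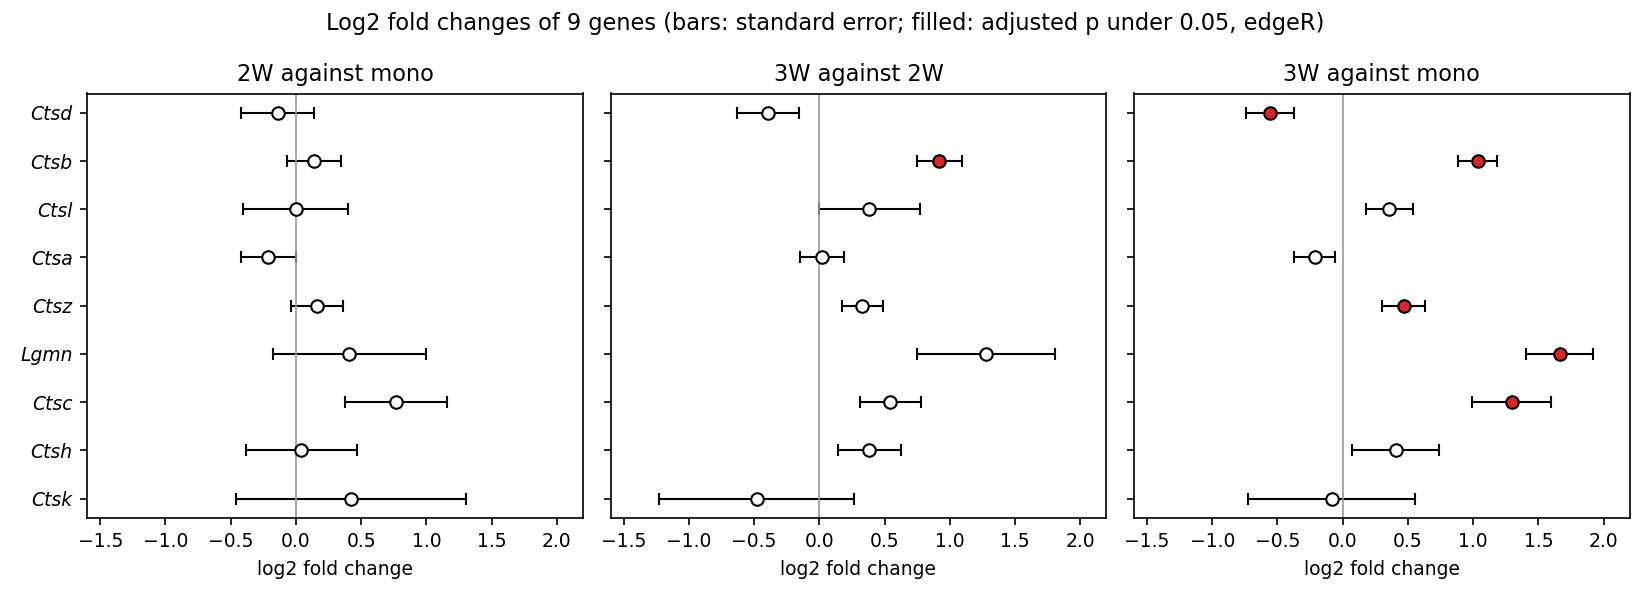
Fitted log2 fold changes (horizontal axis) of 9 members in the 3 comparisons, with standard errors as bars and filled points where the adjusted p was under 0.05. Filled points are Ctsb in 3W against 2W, and Ctsb, Ctsz, Lgmn, Ctsc (higher) and Ctsd (lower) in 3W against mono.

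Ctsb (chromosome 14, 63122462 to 63145923, plus strand, GRCm38) encodes cathepsin B, an endopeptidase that also acts as a carboxydipeptidase and is secreted in many tumours. Its level was 155.3, 162.8, 200.8 and 208.1 CPM in the mono libraries 1 to 4, 176.1, 154.0, 234.0 and 223.6 CPM in the 2W libraries and 343.3, 365.3, 399.1 and 385.2 CPM in the 3W libraries. The mono and 2W libraries overlapped, and the lowest 3W library stood above the highest of either. Ctsb was 1.89-fold higher in 3W samples than in 2W samples (log2 fold change 0.92 ± 0.174 SE, adjusted p = 0.00746) and 2.05-fold higher than in mono samples (1.03 ± 0.150 SE, adjusted p = 6.82e-05). Both calls held in 16 of 16 alternatives, with adjusted p from 3.63e-05 to 0.0312 against 2W samples. The exact two-sided permutation test on CPM gave p = 0.0286 for each, the smallest that 4 against 4 libraries allow. The exons of Ctsb share 774 bases with those of Fdft1 on the opposite strand, and whether counting used the strand is not given in the sources used here, so that reads there cannot be assigned to Ctsb for certain.

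Lgmn (chromosome 12, 102394084 to 102439813, minus strand) encodes legumain, which cuts after asparagine and also processes cathepsins B, L and H into their 2-chain forms. The mono libraries had 26.8, 8.34, 18.0 and 14.8 CPM, the 2W libraries 27.5, 2.95, 45.2 and 12.8 CPM and the 3W libraries 50.8, 50.9, 62.0 and 53.3 CPM. The 3W libraries were the 4 highest of the 12, and the 2W libraries spread over more than the whole mono range. Relative to mono samples, Lgmn was 3.17-fold higher in 3W samples (log2 fold change 1.66 ± 0.256 SE, adjusted p = 0.000123, called in 16 of 16 alternatives), the largest change of the 9 members tested. Relative to 2W samples the fitted difference was 1.28 ± 0.531 SE and was not called (adjusted p = 0.154, exact permutation p = 0.0286). It was called without 2W replicate 2, the library at 2.95 CPM (0.92, adjusted p = 0.0361), and without 2W replicate 3, the library at 45.2 CPM (1.87, adjusted p = 0.0368), but in none of the other 14 alternatives.

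Ctsc (chromosome 7, 88278085 to 88310888, plus strand) encodes cathepsin C, a dipeptidyl peptidase that activates the granule proteases of immune cells. Its mono libraries had 13.8, 4.57, 19.5 and 9.39 CPM, its 2W libraries 23.0, 11.8, 22.3 and 21.9 CPM and its 3W libraries 29.1, 33.1, 23.7 and 30.1 CPM. The 2W libraries lay between the other cultures, overlapped with the mono libraries and ended just under the lowest 3W library. Ctsc was 2.45-fold higher in 3W samples than in mono samples (log2 fold change 1.29 ± 0.305 SE, adjusted p = 0.00446, called in 16 of 16 alternatives). Against 2W samples the difference of 0.55 ± 0.236 SE was called in none of 16 alternatives (adjusted p = 0.169, range 0.147 to 0.362).

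Ctsz (chromosome 2, 174427493 to 174439039, minus strand) encodes cathepsin Z, also named cathepsin X, a carboxypeptidase that binds integrins. Levels were 44.6, 62.9, 53.0 and 68.6 CPM in the mono libraries, 56.0, 74.8, 61.4 and 60.5 CPM in the 2W libraries and 87.0, 73.7, 71.7 and 85.5 CPM in the 3W libraries. The 3W libraries stood above the mono libraries, and 1 library of 2W samples, replicate 2, reached into their range. The 1.38-fold difference from mono samples was near the threshold (log2 fold change 0.47 ± 0.165 SE, adjusted p = 0.0443). The call held in 9 of 16 alternatives and, with 1 library left out, only without mono replicate 4 (0.57) or 3W replicate 3 (0.51), and not without mono replicate 1 (0.36, adjusted p = 0.0821), 2 (0.51, adjusted p = 0.0545) or 3 (0.43, adjusted p = 0.0953) or 3W replicate 1 (0.42, adjusted p = 0.130), 2 (0.50, adjusted p = 0.0738) or 4. The difference from 2W samples, 0.33 ± 0.159 SE, was not called (adjusted p = 0.214).

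Ctsl and Ctsh did not pass the test in any comparison. Ctsl (chromosome 13, 64359337 to 64370890, minus strand) encodes cathepsin L, an endopeptidase of lysosomes that is secreted as a precursor by transformed fibroblasts. It ranged from 130.0 to 253.1 CPM in mono samples, from 56.3 to 339.9 CPM in 2W samples and from 224.4 to 291.5 CPM in 3W samples, so that both the lowest and the highest library were 2W samples. Its fitted difference between 3W samples and 2W samples was 0.38 ± 0.389 SE (adjusted p = 0.573) and fell to 0.076 without 2W replicate 2. Against mono samples it was 0.36 ± 0.182 SE (adjusted p = 0.158). Ctsh (chromosome 9, 90054152 to 90076089, plus strand), whose product cathepsin H is an aminopeptidase, had 4.70 to 26.6 CPM in mono samples, 9.59 to 20.0 CPM in 2W samples and 18.5 to 20.3 CPM in 3W samples. The 3W libraries were the tightest of the 3 cultures, and lay inside the mono range.

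Ctsk (chromosome 3, 95499256 to 95509362, plus strand) had 1 to 28 counts in any library and 0.246 to 4.48 CPM, and no difference was detectable at this depth, with standard errors of 0.641 to 0.879 on the log2 scale. Within both mono samples and 2W samples replicates 1 and 2 were under 0.5 CPM and replicates 3 and 4 above 2 CPM, whereas the 3W libraries ran from 0.799 to 1.91 CPM.

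Ctsd (chromosome 7, 142375911 to 142388038, minus strand), the aspartic protease, was the only member called lower. The mono libraries had 434.1, 728.0, 709.7 and 809.9 CPM, the 2W libraries 396.4, 877.2, 473.1 and 643.3 CPM and the 3W libraries 433.4, 423.8, 434.2 and 535.2 CPM. Mono replicate 1 was as low as the 3W libraries, so that the cultures overlapped. Ctsd was 1.47-fold lower in 3W samples than in mono samples (log2 fold change -0.56 ± 0.181 SE, adjusted p = 0.0303), while the exact permutation test on CPM gave p = 0.0857. The call held in 9 of 16 alternatives and, with 1 library left out, without mono replicate 1 (-0.72, adjusted p = 0.000517) or 3W replicate 4 (-0.64, adjusted p = 0.0376). It was lost without mono replicate 2 (-0.52, adjusted p = 0.0667), 3 (-0.53, adjusted p = 0.0700) or 4 (-0.46, adjusted p = 0.116) and without 3W replicate 1 (-0.54, adjusted p = 0.0853), 2 (-0.52, adjusted p = 0.0985) or 3 (-0.53, adjusted p = 0.0661). Against 2W samples the fitted value was -0.39 ± 0.238 SE (adjusted p = 0.328), or -0.15 without 2W replicate 2.

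Ctsa (chromosome 2, 164832873 to 164841032, plus strand) encodes cathepsin A, which besides cutting peptides shields β-galactosidase and neuraminidase 1 in a complex. It had 125.0 to 191.4 CPM in mono samples, 101.3 to 158.7 CPM in 2W samples and 122.6 to 146.7 CPM in 3W samples, and was called in no comparison. Its fitted difference between 3W samples and 2W samples was 0.020 ± 0.171 SE, and between 3W samples and mono samples -0.22 ± 0.159 SE. Exons of Ctsa share 324 bases with Neurl2 and 495 bases with Pltp on the opposite strand, and those of Ctsz share 10 bases with Nelfcd. No member shared a 75-base window of its last 500 transcript bases with another gene.

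Ctss (chromosome 3, 95526786 to 95556403, plus strand), the neighbour of Ctsk in the genome, had counts in 3W samples only. All 8 mono and 2W libraries had 0 counts, and the 3W libraries had 7, 4, 6 and 20 counts, or 0.932, 0.465, 0.764 and 2.60 CPM. With the 0 counts replaced by a floor of 3 counts over the group (0.126 and 0.122 CPM), the 3W mean was 9.41 times that of 2W samples and 9.77 times that of mono samples. These ratios do not cover the spread of the 3W libraries, and the mean rests largely on replicate 4. Ctss had too few counts for the filter of the main test. With no filter edgeR gave adjusted p = 0.0332 against 2W samples and 0.00298 against mono samples, and DESeq2 gave 0.00626 and 0.00266. Without 3W replicate 4 the mean was 0.720 ± 0.236 CPM (n = 3).

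The summed counts of MØ markers moved with Ctss over the 3W libraries, but single markers did not all do so. The 21 MØ markers had 270, 240, 260 and 660 counts in 3W replicates 1 to 4, so that Ctss came to 2.59, 1.67, 2.31 and 3.03% of the marker counts. In mono samples they had 14 to 73 counts with 12 of the 21 at 0, and in 2W samples 36 to 53 counts with 11 at 0, in both cultures among them Ptprc (CD45), Tyrobp, Laptm5, Spi1 and the C1q chains. In 3W samples only Adgre1 (F4/80) was at 0, and Mpeg1 (6.99 CPM), Cybb (6.31 CPM) and Cd53 (5.38 CPM) were the most abundant. Over 3W replicates 1 to 4 Mpeg1 had 38, 40, 75 and 67 counts, Cybb 63, 73, 32 and 33 and Cd53 41, 36, 37 and 55. Only Cd53 of these was highest in replicate 4, where Lyz2 (107), Lcp1 (89) and Laptm5 (75) had the most counts. Of the 6 MØ markers tested against the 2W culture 3 were called, all higher in 3W (5 without 2W replicate 2), where 5.73% of all genes tested were called higher. Of 6 tested against the mono-culture 4 were called, all higher, where 13.4% of all genes tested were. In each comparison the markers tested were the 6 of 21 with enough counts, which came mostly from the 3W libraries. That filter favours markers that are higher in 3W samples, so their share called cannot be weighed against that of all genes. In bulk RNA, more cells of a type in the sort and more RNA per cell cannot be told apart, and whether Ctss transcripts came from PSCs or from MØs, which the TagBFP-negative sort should remove, was not tested. The Ctsb call against 2W samples was also made without 3W replicate 4 (0.91, adjusted p = 0.0302), and the part of MØ RNA in it was not tested.

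**Figure D4:**
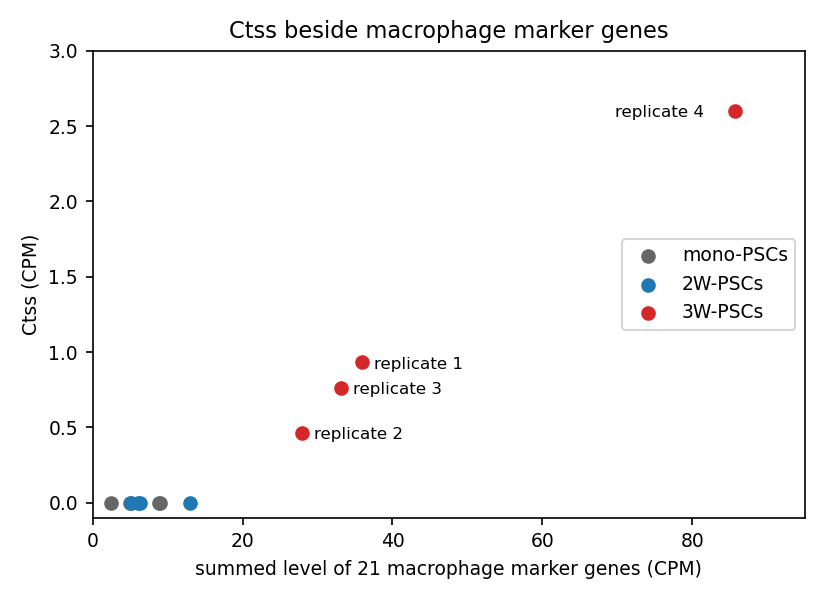
Level of Ctss (vertical axis, CPM) against the summed level of 21 MØ marker genes (horizontal axis, CPM) in the 12 libraries, coloured by culture. Ctss is at 0 in the mono and 2W libraries, where the markers sum to at most 13.0 CPM, and the 3W libraries lie at 27.9 to 85.8 CPM of markers, replicate 4 being highest on both axes.

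The rest of the lysosome was read from lists of related genes. Transcripts of the vacuolar proton pump, which acidifies the lysosome and so allows cathepsins to mature, were lower in 3W samples: of 15 genes tested, 11 were called lower and none higher than in mono samples, with a median log2 fold change of -0.68, where 13.0% of all genes tested were called lower. The largest were Atp6v0b (402.7 ± 116.3 CPM in mono samples and 155.0 ± 8.76 CPM in 3W samples, log2 fold change -1.38, adjusted p = 4.36e-05), Atp6ap2 (-1.31) and Atp6v1f (-1.30). The summed pump level was 3633 ± 625.8 CPM in mono samples, 2822 ± 319.6 CPM in 2W samples and 2011 ± 104.0 CPM in 3W samples. Against 2W samples 4 of the 15 were called lower (6 without 2W replicate 2), where 4.95% of all genes tested were, led by Atp6v0b (-0.95), Atp6v0a1 (-0.79) and Atp6v1f (-0.79). That count was 2 without 3W replicate 1, 3 or 4 and with the replicate block, and 1 without 2W replicate 4 or 3W replicate 2, whereas the count against mono samples moved by less than 1.5 times in every alternative. Of the 75-base windows at the 3′ end of Atp6v1f, 10.2% also occur in other genes. Exons of Atp6v0b share 243 bases with Gm12841 on the opposite strand. Atp6v0c, also listed, had too few counts to be tested (means of 0.174 to 0.806 CPM), and 32.2% of its windows occur in other genes.

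Other enzymes and membrane proteins of the lysosome were called lower or not at all in 3W samples against mono samples. In this comparison 13.0% of all genes tested were called lower and 26.4% in either direction. Among 27 hydrolases of sugars and lipids 7 were called lower (median -0.11), led by Sgsh (-1.16, adjusted p = 0.00532), which degrades heparan sulfate, Gm2a (-0.87), the activator of ganglioside breakdown, and Ids (-0.86), a sulfatase of heparan and dermatan sulfate. Of 7 other lysosomal proteases tested, 2 were called lower, Dpp7 (-1.56, adjusted p = 2.17e-05), a dipeptidyl peptidase, and Scpep1 (-0.63), a relative of cathepsin A. Of 11 membrane proteins 4 were called lower, led by the calcium channel gene Mcoln1 (-0.78), the cystine carrier gene Ctns (-0.77) and Lamp1 (-0.56). Against 2W samples these lists, with 27, 8 and 11 genes tested, held 2 calls, Fuca1 (-0.99, adjusted p = 0.0469) and Asah1 (-0.84, adjusted p = 0.0124), both lower. Of all genes tested in that comparison, 4.95% were called lower and 10.7% in either direction. These smaller lists moved with single libraries: without mono replicate 1 the calls against mono samples came to 13 hydrolases (2 higher and 11 lower), 4 proteases (2 higher and 2 lower) and 7 membrane proteins (all lower). The membrane proteins called fell to 2 without mono replicate 3 or 4 or 3W replicate 1, 2 or 3, and the proteases to 1 without mono replicate 4 or 3W replicate 1 or 2, all of them lower. Against 2W samples no hydrolase was called without 3W replicate 1 or 2, 1 was called lower without 2W replicate 4 or 3W replicate 3 or 4 and with the replicate block, and 4 were called without 2W replicate 3, 2 higher and 2 lower. In that comparison 1 other protease was called lower without 2W replicate 1 or 2, with no filter, with a minimum of 10 counts, with DESeq2 size factors and with DESeq2, and 1 was called higher without 2W replicate 3. A membrane protein was called higher there without 2W replicate 2 or 4.

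The sorting genes moved in both directions. Of 10 genes tested against mono samples 3 were higher and 2 lower (13.4% and 13.0% of all genes tested), including M6pr (1.13, adjusted p = 0.000686), a mannose 6-phosphate receptor, and Gnptab (0.86, adjusted p = 0.00361), whose product makes that tag, while Sort1 (-1.37, adjusted p = 0.0318), the gene for the alternative sorting receptor sortilin, was lower. Gnptab was also the only sorting gene called against 2W samples (12.5 ± 5.80 CPM in 2W samples, 30.7 ± 4.13 CPM in 3W samples, log2 fold change 1.27, adjusted p = 0.0374), and no sorting gene was called there without 2W replicate 4 or any of the 3W replicates, or with the replicate block. Without 2W replicate 2 or 3 there were 2 sorting genes called, both higher, and against mono samples the count was 3 without mono replicate 2 or 3W replicate 1 or 4. Of 3 MiT factors tested Mitf was lower than in mono samples (-0.83, adjusted p = 0.0364), with none called against 2W samples except 1, higher, without 2W replicate 2. The Mitf call was lost without mono replicate 1, 2 or 3 or 3W replicate 2, 3 or 4.

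Among the cathepsin inhibitors, Serpina3g, an intracellular inhibitor of cathepsins, had 370 counts in the 3W libraries and 1 count in each of the other cultures, a ratio of 277 to 2W samples (95% exact interval 49.5 to 10985, counting error only) and of 288 to mono samples (51.4 to 11403). It was called in both comparisons (adjusted p = 7.98e-05 and 2.13e-07). Of its 3′ windows, 10.9% occur in its close relatives. Ctla2a, which resembles the propeptide of cathepsins, was lower in 3W samples than in 2W samples (41.9 ± 2.91 and 157.6 ± 55.7 CPM, log2 fold change -1.91, adjusted p = 0.000552). In mono samples it had 58.8 ± 28.4 CPM, and 3W samples did not differ from these by the test (-0.48, adjusted p = 0.140). Its 2W against mono value was 1.45 and not called (adjusted p = 0.0576). Serpinb6a was lower in 3W samples than in mono samples (-0.67, adjusted p = 0.0109). Of the 6 inhibitors tested, the cystatin genes Cst3 and Cstb were not called in either comparison. The MHC class II partner of cathepsin S, the invariant chain gene Cd74, had 2.56 ± 0.530 CPM in mono samples and 7.20 ± 3.65 CPM in 3W samples (log2 fold change 1.47, adjusted p = 0.0139), a call that was lost without 3W replicate 4. Of 3 genes tested against mono samples in the list of invariant chain and class II genes, only Cd74 was called. In this comparison 26.4% of all genes tested were called. H2-DMa (-0.69) and H2-DMb1 (-0.31) had negative values and were not called. H2-Aa, H2-Ab1, H2-Eb1 and Ciita averaged at most 0.301 CPM in any culture. Without 2W replicate 2, 1 gene of that class II list was called against 2W samples. Between 2W and mono samples edgeR called 0 of the 82 genes tested in these lists, of which 9 had an unadjusted p under 0.05, and DESeq2 called 4. In edgeR 1 inhibitor was called without mono replicate 2, and 1 inhibitor and 1 sorting gene without 2W replicate 2.

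**Figure D5:**
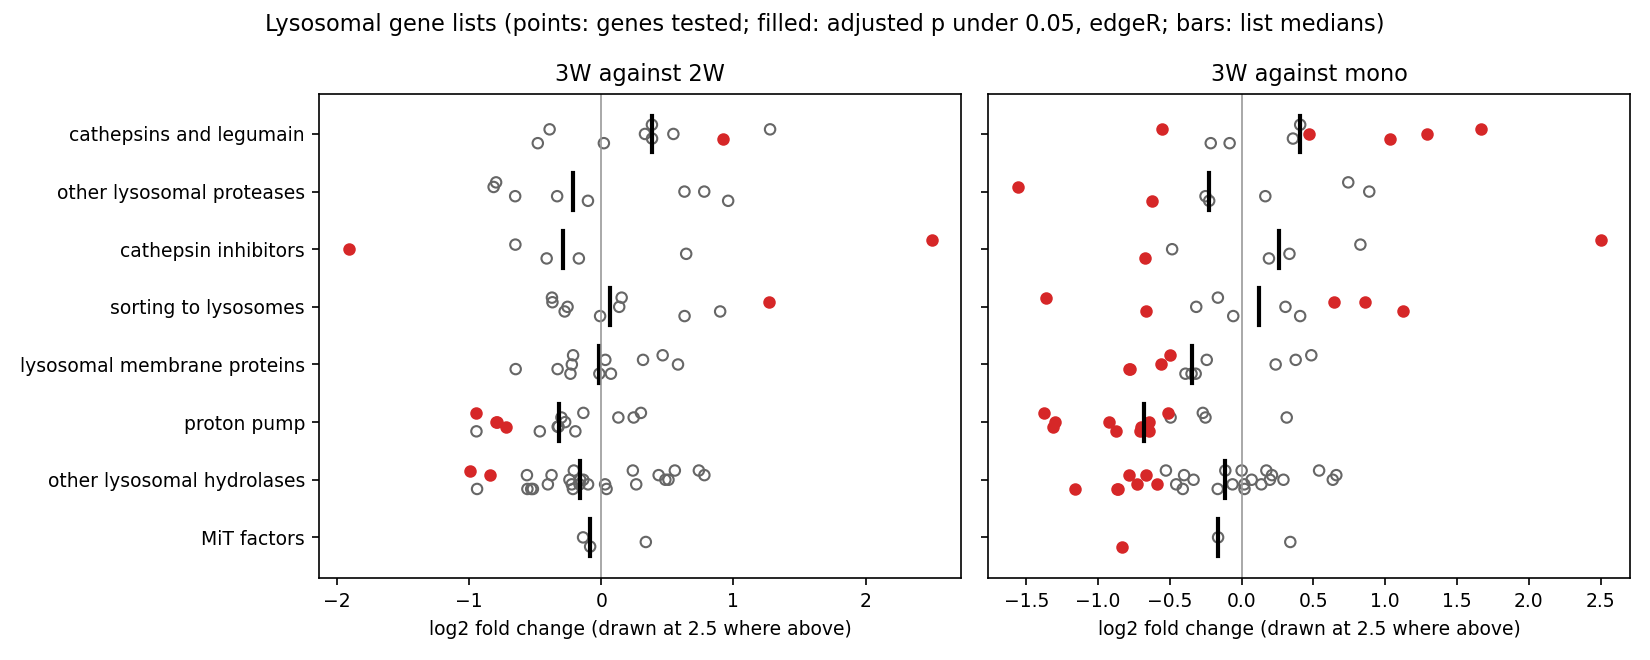
Fitted log2 fold changes (horizontal axis) of the genes tested in 8 lysosomal lists (rows) for 3W against 2W (left) and 3W against mono (right), filled where the adjusted p was under 0.05, with list medians as bars. Serpina3g lies beyond the axis and is drawn at 2.5. In 3W against mono the proton pump row has 11 filled points, all left of 0, and the row of cathepsins and legumain has 4 right of 0 and 1 left of it.

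Across the 12 libraries the members did not move as 1 block. Over log2(CPM + 1), which the differences between cultures and the library depth both enter, Lgmn went with Ctsl (r = 0.864, and 0.743 over the 11 libraries without 2W replicate 2) and with Ctsb (r = 0.777), and against Ctsd (r = -0.838). Ctsa went with Ctsd (r = 0.754). Without 2W replicate 2, r was 0.775 for Lgmn with Ctsb, -0.78 for Lgmn with Ctsd and 0.845 for Ctsa with Ctsd. These are descriptions over libraries of 3 cultures. The genes whose log2 CPM followed Ctsb most closely over the 12 libraries, among 8701 genes with a mean log2 CPM above 3, were Herc6 (r = 0.972), Vcam1 (0.968), H2-D1 (0.966), Cp (0.964) and Tor3a (0.963). Each was higher in 3W samples, as Vcam1 with means of 146.4, 144.3 and 684.9 CPM in mono samples, 2W samples and 3W samples and Cp, the ceruloplasmin gene, with 19.1, 25.8 and 109.8 CPM.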

How the data were processed

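RNA from sorted PSCs was made into 3′ end libraries (QuantSeq 3′ FWD) and, per the study's methods, trimmed, aligned with STAR to GRCm38 and counted per Ensembl gene with featureCounts. The authors deposited raw counts, whole numbers per gene that are not normalised. Whether counting used the strand, and whether molecular identifiers were read, is not given in the sources used here, so intervals and floors cover counting error only. From the counts, edgeR 4.0.16 in R 4.3.3 gave TMM-scaled CPM over all 12 libraries and a quasi-likelihood test for each pair of cultures on its 8 libraries, after its own filter on low counts, with Benjamini-Hochberg adjustment and a prior count of 0.125. Tests are two-sided. DESeq2 1.42.0 and other filters, scalings, a replicate block and left-out libraries served as alternatives. Scripts were tested on simulated data. The members and gene lists were chosen with earlier results of these data known. In each list at most 3 called genes of the largest change are named per comparison. No libraries agreed within sampling noise.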

Additional observations from a re-analysis of the deposited data

Results flagged for a closer look

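In 33 groups of 4 libraries (a member, or the sum of the members, in 1 culture), 3 had a lowest or highest library whose gap to its nearest neighbour took more of the group's range than Dixon's 95% critical value for 4 samples, a rule that chance meets in about 1 in 20 groups. The lowest Ctsc library of 2W-PSCs was replicate 2, at 11.8 CPM, with the next at 21.9 CPM (gap 0.902 of the range). The highest Ctsd library of 3W-PSCs was replicate 4, at 535.2 CPM, with the next at 434.2 CPM (0.907 of the range), and this library also had the most MØ marker counts. The lowest sum of the 10 members in 2W-PSCs was that of replicate 1, at 980.7 CPM, with the next at 1318 CPM (0.932 of the range).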

How the results depend on the processing

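The calls of Ctsb in both 3W comparisons and of Lgmn and Ctsc against mono-PSCs held in all 16 alternatives run. In all counts out of 16, 1 alternative, a prior count of 2, enters the fitted fold changes only and could not alter a call. Members called in 3W against 2W, 1 in the main test, were 2 with no filter and 2 with DESeq2 (Ctsb and Ctss in both), and 1 to 2 with 1 library left out. In 3W against mono, 5 in the main test, they were 3 with all 12 libraries in 1 fit and 3 to 4 with 1 library left out. Genes called in 3W against 2W were 497 (without 3W replicate 2) to 2107 (without 2W replicate 2) with 1 library left out. In 2W against mono, 111 in the main test, they were 177 with no filter, 57 with a minimum of 10 counts, 262 with all 12 libraries in 1 fit and 277 with DESeq2, and 61 (without mono replicate 4 or 2W replicate 4) to 233 (without 2W replicate 2) with 1 library left out. The cause was not tested, beyond the fewer genes or libraries of some fits.

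Nothing in the labels says that a replicate number marks a shared day or batch. Correlations of same-numbered libraries' deviations were -0.048 to 0.155 in 3W against 2W, 0.0026 to 0.107 in 3W against mono and 0.099 to 0.338 in 2W against mono, where 3 of 4 libraries matched their own number best, a hint of pairing from the data, so the block is given only as an alternative. With the replicate number as a block, 752 genes were called in 3W against 2W (1230 in the main test). In 2W against mono 135 were called (111 in the main test) and in 3W against mono 3092 (3054 in the main test). Members called with the block were 1, 0 and 5 in 3W against 2W, 2W against mono and 3W against mono.

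Reversed signs were those of uncalled members. In 3W against 2W, Ctsa was -0.0063 with DESeq2 size factors, -0.00032 with DESeq2 and -0.099 to 0.11 with 1 library left out, and Ctsk -0.83 to 0.46. In 2W against mono, leaving out 1 library gave Ctsh -0.26 to 0.47, Ctsk -0.53 to 0.84, Ctsl -0.42 to 0.29 and Lgmn -0.21 to 0.75. In 3W against mono, Ctsk was 0.13 with the replicate block and -0.40 to 0.32 with 1 library left out. Depth limits Ctsk and Ctss, with at most 28 counts in a library.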
